A study of Mus musculus with 4 samples.

Results

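Baicalin was compared with its solvent DMSO in mouse mammary cells that the depositors labelled luminal. The comparison rests on 2 of the 4 libraries of the series, 1 from cells given 100 μM baicalin and 1 from cells given DMSO. Genes were chosen by a single condition, an FPKM (counted fragments scaled to a gene's exon length and to the library's total) above 0 in both libraries, which 20001 of the 54446 listed genes met. The log2 change of a gene is the log2 of its baicalin FPKM plus 1 over its DMSO FPKM plus 1, a scale that shrinks the change of genes at low FPKM, and a gene is called higher or lower where this log2 change passes 1 in size. A gene is called well measured where its FPKM was at least 5 in 1 of the libraries, and 8450 genes were. Pigg, with 4.9986 FPKM in its higher library, stood just outside that limit and Ints6, with 5 FPKM, just inside it.

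The cells came from mammary glands of wild type C57BL/6 mice, were separated by flow cytometry on CD24 and CD29 with antibodies to the blood and endothelial markers CD31, CD45 and TER119, and grew as colonies in growth factor-reduced Matrigel. The same medium, with insulin, transferrin, selenium and EGF, bathed both conditions, so EGF was present with DMSO as well. A further pair of libraries, labelled basal, was made the same way and is used for side-by-side values. Neither the time of harvest for RNA nor the number of animals behind a library is given in the sources used here.

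Baicalin is a flavone glucuronide from the root of Scutellaria baicalensis. The mammary duct has an inner luminal layer, which makes milk and holds the cells that sense hormones, and an outer basal layer, which contracts and rests on the basement membrane. Cells meet their surroundings through carriers and channels that move nutrients and ions across membranes, receptors that read outside signals, secreted proteins that carry signals or build matrix, and transcription factors that set which genes are read.

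The basal and the luminal keratin markers went against the label of these cells, while hormone-sensing and alveolar markers were mixed. Between the DMSO libraries, all 10 basal markers read had more FPKM under the luminal label than under the basal label, and all 10 luminal keratin and epithelial markers had less. Acta2, the smooth muscle actin of myoepithelial cells, had 555 FPKM here against 7.66 with the basal label, and Krt18, a keratin of luminal cells, had 298 against 1408. Of 10 hormone-sensing markers 4 were higher and 5 lower under the luminal label, the higher ones being Pgr (4.81 against 1.08 FPKM), Cited1 (7.36 against 0.0574), Foxa1 (9.3 against 1.8) and Esr1 (1.44 against 0.992). Of 10 alveolar markers 3 were higher and 6 lower. The higher ones were the caseins Csn1s1 (3.56 against 1.14 FPKM), Csn3 (4.54 against 2.67) and Csn2, the last near the floor at 0.0075 against 0. The name luminal is used only as the label of the libraries. Summed marker FPKM went from 5404 with DMSO to 7199 with baicalin for 10 basal genes, and from 1397 to 1208 for 10 luminal keratin and epithelial genes. Of the basal genes 5 were higher and 5 lower by sign, with 1 higher and 3 lower past 1. The keratins Krt14, Krt5 and Krt17 carried the basal sum, with 3132, 2415 and 1140 FPKM under baicalin. Of the luminal keratin and epithelial genes 3 were higher and 7 lower by sign, 1 past 1 each way. For the other luminal lists the sums went from 76.7 to 123 over 10 hormone-sensing genes and from 79.8 to 178 over 10 alveolar genes. Single genes carried these last sums, Ly6a with 78.1 FPKM of the hormone-sensing one under baicalin and Aldh1a3 with 163 of the alveolar one, while 6 of 9 and 6 of 8 tested members were lower by sign. The sums were 11.7 and 10.3 for 8 fibroblast genes, 15.8 and 5.45 for 5 adipocyte genes, 5.11 and 15.2 for 8 immune genes, 1.79 and 3.57 for 6 endothelial genes and 0.206 and 0.133 for 4 red blood cell genes. Of the immune sum with baicalin, 13.7 FPKM were Cd68, a lysosomal protein, while Ptprc, the pan-leukocyte marker, had 0.0053. The part of these cell types in the changes below was not tested, and in bulk RNA fewer cells of a type and less RNA per cell cannot be told apart.

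The FPKM steps of low genes gave 19356058 counted fragments for the DMSO library and 20648758 for the baicalin library. With 1 library per condition there is no replicate check, no test between conditions and no p-value. The brackets after an FPKM ratio hold its 95% interval, an exact Clopper-Pearson interval of the fragments that covers counting error only. How much separate cultures of a condition differ cannot be read from these libraries, so an effect of baicalin cannot be told apart from other ways in which the cultures differed.

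Among the 20001 genes, 452 were higher with baicalin by more than 1 on the log2 scale, 2.26%, and 318 were lower, 1.59%. By sign 8961 of the 20001 were higher and 11038 lower, and the median log2 change over all of them was -0.01. Of the 8450 well-measured genes, 348 were higher, 4.12%, and 197 lower, 2.33%, around a median of -0.04. For 539 of these 545 genes the interval of the FPKM ratio excluded 1. The limit of 5 FPKM reads the higher library, and 281 of the 545 passed it in 1 library only, so counts for each family are given first over all its tested members. Shares and medians among well-measured members therefore include genes that passed the limit only where they were high. Calls in a family are to be read beside the shares over all genes. Higher genes made up 58.7% of the calls on the main scale, 63.2% after centring on the median and 47.6% with no pseudocount.

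**Figure D1:**
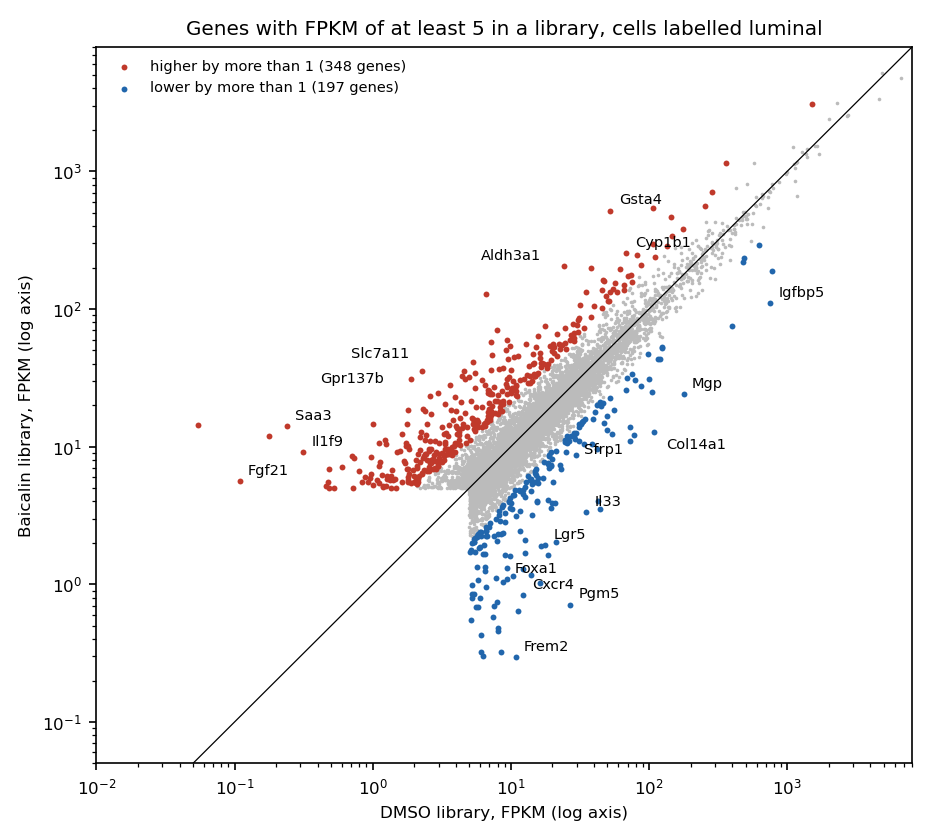
FPKM of the 8450 well-measured genes in the DMSO library (horizontal) and the baicalin library (vertical), both on log axes, cells labelled luminal. Each point is 1 gene, red where the log2 change was above 1 (348 genes) and blue where it was below -1 (197 genes), and the line marks equal FPKM. Slc7a11, Gsta4 and Saa3 lie far above the line and Pgm5, Frem2 and Cxcr4 far below it.

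The largest rises joined a cystine carrier, detoxifying enzymes and inflammatory proteins, and the largest falls joined matrix proteins, a chemokine receptor and an IGF-binding protein. Gsta4, a glutathione S-transferase that conjugates lipid aldehydes (ENSMUSG00000032348, chromosome 9, 78182774 to 78209349), rose from 52.4 to 518 FPKM, a baicalin over DMSO ratio of 9.88 (9.33 to 10.5). Aldh3a1, an aldehyde dehydrogenase (ENSMUSG00000019102, chromosome 11, 61207537 to 61218421), rose from 24.2 to 206 FPKM, a baicalin over DMSO ratio of 8.48 (7.92 to 9.09). Ptgs2, the inducible cyclooxygenase of prostaglandin synthesis, rose from 7.14 to 57.3 FPKM, and Gjb2, which encodes connexin 26, from 5.35 to 41.2 FPKM. In the other direction, Pgm5, a phosphoglucomutase-like protein of cell-matrix junctions (ENSMUSG00000041731, chromosome 19, 24683016 to 24861855), had the largest fall, from 26.8 to 0.711 FPKM, a baicalin over DMSO ratio of 0.0266 (0.0198 to 0.0349). Fbp1, the fructose bisphosphatase of gluconeogenesis, fell from 16.2 to 1.02 FPKM. Some of the top rises share their sequence with other genes. Rps26-ps1, a copy of a ribosomal protein gene, had the largest log2 change, 4.10, but the depth-scaled fragments summed over it and 3 near-identical genes had a ratio of 0.91 (0.887 to 0.933). Gsta1, Gsta2, Gm3776 and Gm10639, alpha-class transferase genes, together went from 15 to 640 fragments, a depth-scaled ratio of 40 (24.1 to 71.9), while the split between them is uncertain.

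Of 527 transporter and channel genes tested, 27 were higher with baicalin, 5.12%, and 18 lower, 3.42%, beside 2.26% and 1.59% of all genes. Among the 208 that were well measured these shares were 12% and 5.29%, beside 4.12% and 2.33%. By sign 131 of the 208 were higher, beside 3865 of the 8450 well-measured genes. Carriers of amino acids gave 7 of the 27 higher genes. Of 45 tested, 7 were higher and 1 was lower, with a median log2 change of 0.06. The 20 well measured held 6 higher genes at a median of 0.66. That median depends on the limit, which Slc7a11, Slc7a3 and Slc7a8 passed with baicalin only and Slc7a2 with DMSO only. Slc7a11, the cystine-glutamate exchanger that feeds glutathione synthesis (ENSMUSG00000027737, chromosome 3, 49892526 to 50443614), rose from 2.27 to 35.6 FPKM, a baicalin over DMSO ratio of 15.7 (14.5 to 17.1). Slc7a3, a cationic amino acid carrier, rose from 0.601 to 7.06 FPKM, a baicalin over DMSO ratio of 11.8 (8.64 to 16.4). Slc6a9, a glycine carrier (ENSMUSG00000028542, chromosome 4, 117834506 to 117875198), rose from 6.2 to 30.4 FPKM, a baicalin over DMSO ratio of 4.91 (4.501 to 5.36). Slc7a5 and Slc7a8, light chains of exchangers for large neutral amino acids, rose from 16.9 to 40.8 FPKM and from 2.48 to 7.98 FPKM. Slc7a2, which like Slc7a3 carries arginine and lysine, went the other way and fell from 9.13 to 1.62 FPKM, a baicalin over DMSO ratio of 0.178 (0.157 to 0.201). Exons of Slc6a9 overlap genes on the opposite strand over 30.2% of their bases. The kit kept strand, but whether reads were assigned by strand is not stated in the sources used here.

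The promoter of Slc7a11 is shown because it carries letters of the element read by C/EBP-ATF dimers, as do other genes listed below as ATF4-linked. The motif searched was TGATGNAA on both strands, within 250 bases before and 50 after each RefSeq start on GRCm38. Of 32851 promoters of that length 3.97% held it, and of 27025 genes 4.51% held it in at least 1 promoter. Among the 28 ATF4-linked genes with a promoter in the table, 8 held it, 28.6%, namely Asns, Chac1, Fgf21, Nupr1, Pycr1, Slc7a11, Trib3 and Vldlr. In Slc7a11 the first bases of the matches lie at -66 and -47 from the start, in opposite orientations, and in Chac1, a glutathione-degrading cyclotransferase, at -193. Capitals mark the matches in the RefSeq sequences given here 5′ to 3′ along each gene. For Slc7a11 (chr3:50443614-50443863, minus strand) and Chac1 (chr2:119350992-119351241, plus strand) they are the 250 bases before the start, and for Trib3 (chr2:152344028-152344057, minus strand) 30 bases around a match at 15 behind the start.
Slc7a11: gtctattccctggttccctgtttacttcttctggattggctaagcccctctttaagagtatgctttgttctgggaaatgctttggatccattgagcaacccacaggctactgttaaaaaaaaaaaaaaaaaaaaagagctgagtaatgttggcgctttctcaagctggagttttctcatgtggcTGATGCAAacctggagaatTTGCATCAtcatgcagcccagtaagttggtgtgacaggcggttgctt
Chac1: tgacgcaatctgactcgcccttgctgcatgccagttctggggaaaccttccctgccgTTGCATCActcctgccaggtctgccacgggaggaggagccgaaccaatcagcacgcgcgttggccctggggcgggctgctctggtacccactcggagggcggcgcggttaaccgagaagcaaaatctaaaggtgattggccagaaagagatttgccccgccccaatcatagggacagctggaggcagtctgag
Trib3: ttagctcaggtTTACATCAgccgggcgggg

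Another motif, TGACNNNGC, holds the core letters of the antioxidant response element read by NRF2. It was found in 12.4% of promoters and 14% of genes, and in 8 of 21 NRF2-linked genes with a promoter in the table, 38.1%. The share among ATF4-linked genes was similar, 10 of 28, 35.7%, so these letters did not set the NRF2-linked list apart. No promoter, 0 of 32851, held overlapping matches of the antioxidant and C/EBP-ATF motifs. The letters of the motifs conflict in nearly every overlapping arrangement, so this count was close to fixed in advance and shows nothing about the promoters. The match of Srxn1, which encodes sulfiredoxin, lies at 29 behind the start (chr2:152105541-152105570, plus strand).
Srxn1: ggcagtgggcaGCTAGGTCAgagtgagaca

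Of the 15 largest rises, 10 had a promoter in the table. Among them 0 held the antioxidant letters, 2 held the C/EBP-ATF letters (Slc7a11 and Sprr1b) and 2 held the dioxin response letters TNGCGTG (Gm3776 and Ptgs2), which 5.84% of genes held. Of the 15 largest falls, 12 had a promoter there, of which 4 held the antioxidant letters (Col9a2, Emid1, Fbp1 and Kazald1) and 0 held either other motif. The ATF4-linked and NRF2-linked lists were written from known targets, and a match is a run of letters, not a shown binding site.

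Other carrier families had few calls each. Sugar carriers had 1 higher and 0 lower of 22 tested, organic ion and drug carriers 2 and 0 of 19, metal carriers 1 and 1 of 29, and phosphate and nucleotide-sugar carriers 1 and 1 of 36. In this order 4.55%, 10.5%, 3.45% and 2.78% were higher, beside 2.26% of all genes, of which 1.59% were lower. Slc5a1, the sodium-glucose cotransporter, rose from 1.35 to 6.12 FPKM, and Slc22a23, an orphan member of the organic ion carriers, from 7.56 to 27.1 FPKM. Slc48a1, which moves heme, rose from 30.7 to 82.5 FPKM, a baicalin over DMSO ratio of 2.69 (2.54 to 2.85), and Slc40a1, the iron exporter ferroportin, from 4.84 to 11.97 FPKM. The phosphate carrier Slc20a1 rose from 22.4 to 55.9 FPKM. Of 39 ABC transporters tested 2 were higher and 0 lower. These were Abca12, a lipid transporter of keratinocytes, from 2.397 to 11.1 FPKM, a baicalin over DMSO ratio of 4.64 (4.27 to 5.04), and Abcc4, a drug and prostanoid exporter, from 1.77 to 6.92 FPKM, a baicalin over DMSO ratio of 3.91 (3.37 to 4.55). Abcc1, another exporter of glutathione conjugates, went from 12.7 to 26.3 FPKM, a log2 change of 0.99.

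Transporters that fell included pumps, nucleoside and peptide carriers and a water channel. Atp2a3, a calcium pump of the endoplasmic reticulum (ENSMUSG00000020788, chromosome 11, 72961169 to 72993044), fell from 6.29 to 0.303 FPKM, a baicalin over DMSO ratio of 0.0481 (0.0328 to 0.0683). Slc29a1, an equilibrative nucleoside carrier, fell from 46.8 to 14.8 FPKM, a baicalin over DMSO ratio of 0.316 (0.296 to 0.338), Slc27a3, an acyl-CoA synthetase of the fatty acid carrier family, from 15.8 to 5.94 FPKM, and Slc15a1, the peptide carrier, from 6.04 to 2.38 FPKM. Aquaporins moved both ways. Aqp5, a water channel of secretory epithelia, fell from 18.5 to 4.099 FPKM, a baicalin over DMSO ratio of 0.222 (0.191 to 0.257), while Aqp3, a water and glycerol channel of stratified epithelia, rose from 16.4 to 37.97 FPKM, a baicalin over DMSO ratio of 2.32 (2.103 to 2.56). Within the vacuolar proton pump, which acidifies lysosomes, 18 of 23 tested subunits were higher by sign, beside 8961 of the 20001 genes. The pump had a median log2 change of 0.30 and no rise past 1. Its single call was the fall of Atp6v1b1, the B subunit of specialised acid-secreting cells, from 14.1 to 3.21 FPKM, a baicalin over DMSO ratio of 0.227 (0.199 to 0.258), whereas the widely expressed B subunit Atp6v1b2 went from 21.5 to 39.2 FPKM, a log2 change of 0.83.

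Channels of the TRP and chloride families had more rises than falls, and potassium channels the reverse. Of 22 TRP channels tested 3 were higher, 13.6%, and 1 lower, 4.55%, beside 2.26% and 1.59% of all genes. The higher ones reached the limit of 5 FPKM in the baicalin library only. They were Mcoln3, an endolysosomal cation channel (2.58 to 7.58 FPKM), and the warmth-gated channels Trpv4 (2.84 to 7.82 FPKM) and Trpv3 (1.99 to 5.54 FPKM). Among 31 chloride channel and anoctamin genes 0 were lower and 4 higher, 12.9%, namely Clca2, Clic3, Lrrc8c and Ano1. Clca2, a p53-inducible regulator of chloride conductance, rose from 1.01 to 5.27 FPKM, and Ano1, a calcium-activated chloride channel, from 10.9 to 23.8 FPKM. Of 53 potassium channel genes 1 was higher, 1.89%, and 5 lower, 9.43%, but only 3 were well measured. Among those 3 Kcne3, an accessory subunit, fell from 10.1 to 3.54 FPKM.

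**Figure D2:**
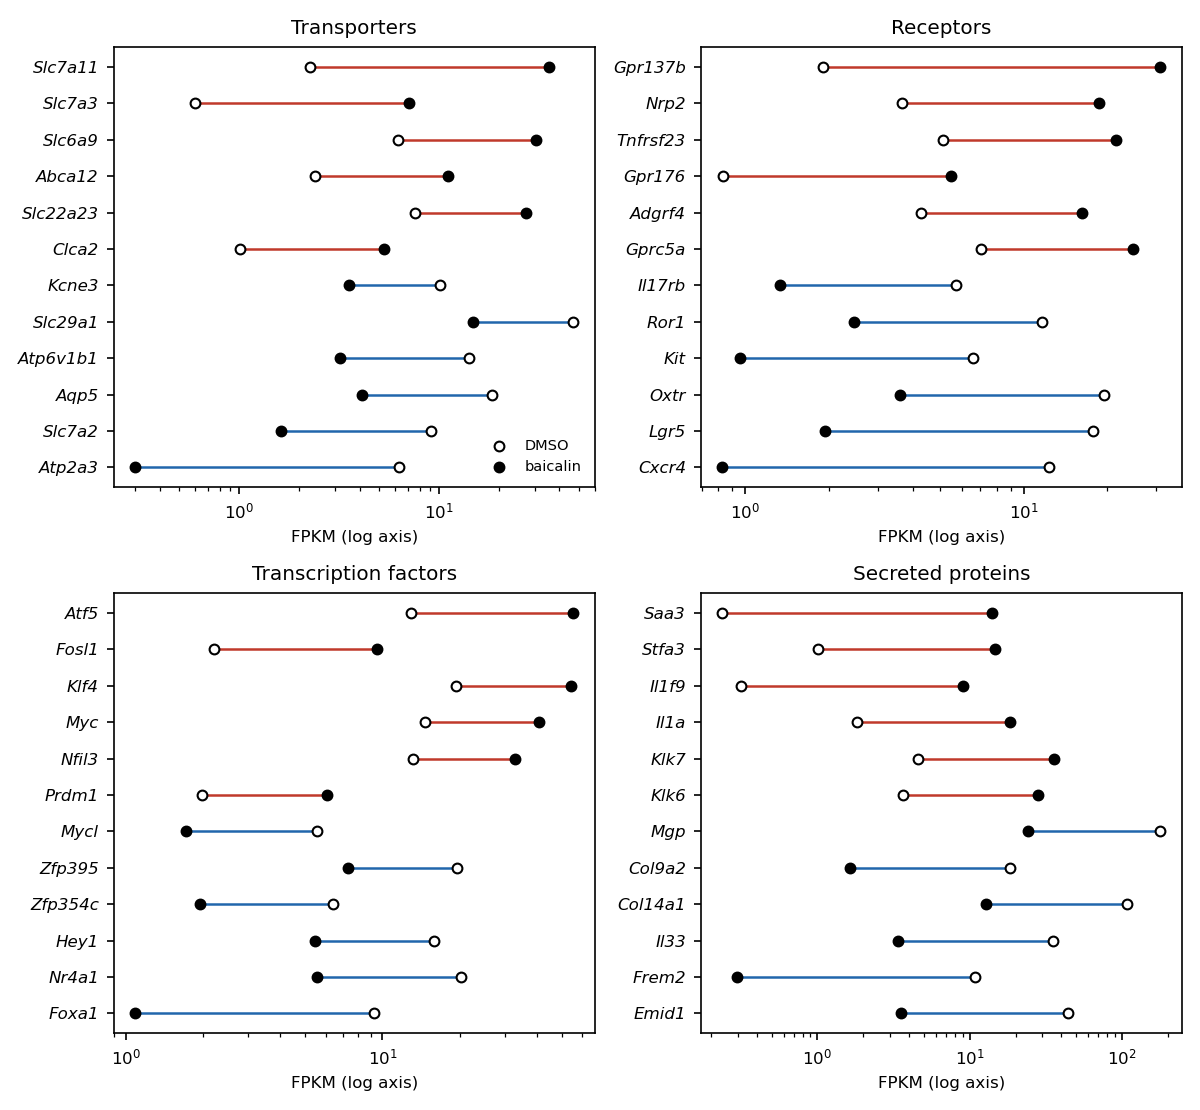
FPKM with DMSO (open circles) and with baicalin (filled circles) of the 6 largest rises (red lines) and the 6 largest falls (blue lines) among well-measured members of 4 classes, on log axes, 1 library each. Within their panels the longest lines among rises are those of Saa3, Gpr137b and Slc7a11, and among falls those of Frem2, Atp2a3, Cxcr4 and Foxa1.

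Transcription factors were called less often than genes in general. Of 763 tested, 11 were higher, 1.44%, and 9 lower, 1.18%, against 2.26% and 1.59% over all genes, and the median log2 change was -0.04. Among the 330 well measured, 10 were higher, 3.03%, and 7 lower, 2.12%, beside 4.12% and 2.33% of all well-measured genes. Atf5, a stress-induced bZIP factor (ENSMUSG00000038539, chromosome 7, 44812256 to 44816658), had the largest rise of the well-measured ones, from 12.96 to 55.3 FPKM, a baicalin over DMSO ratio of 4.26 (3.87 to 4.71). Fosl1, an AP-1 subunit, rose from 2.21 to 9.504 FPKM, a baicalin over DMSO ratio of 4.302 (3.401 to 5.49), but 57.2% of its exon bases overlap a gene on the other strand. Klf4 and Grhl3, factors of the epidermal barrier, rose from 19.3 to 54.3 FPKM and from 7.15 to 18.1 FPKM. Myc, the growth regulator, rose from 14.6 to 40.8 FPKM, a baicalin over DMSO ratio of 2.79 (2.57 to 3.03), while Mycl, another member of its family, fell from 5.54 to 1.72 FPKM, a baicalin over DMSO ratio of 0.3096 (0.254 to 0.375). Further rises were those of Nfil3 (13.2 to 32.9 FPKM), a bZIP repressor, Prdm1 (1.98 to 6.09 FPKM), which encodes BLIMP1, and Nfe2l3 (2.502 to 6.76 FPKM), a relative of NRF2. Nfkbia, the NF-kB inhibitor and itself an NF-kB target, is counted in the list though not a transcription factor, and rose from 51.6 to 114 FPKM. Ppard, a nuclear receptor for fatty acids, rose from 3.94 to 9.197 FPKM.

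Falls of transcription factors included genes tied to hormone sensing and Notch signalling. Foxa1, a pioneer factor that opens sites for the oestrogen receptor (ENSMUSG00000035451, chromosome 12, 57540628 to 57546916), fell from 9.302 to 1.09 FPKM, a baicalin over DMSO ratio of 0.117 (0.0911 to 0.149). Nr4a1, an orphan nuclear receptor and immediate-early gene, fell from 20.1 to 5.58 FPKM, a baicalin over DMSO ratio of 0.277 (0.247 to 0.3098), and Hey1, a Notch target repressor, from 15.8 to 5.44 FPKM, a baicalin over DMSO ratio of 0.344 (0.305 to 0.389). Irx4, an Iroquois homeobox gene, fell from 25.3 to 11.2 FPKM, and its relatives Irx2 and Irx1 went from 118 to 66.4 FPKM and from 70.8 to 43.9 FPKM, log2 changes of -0.82 and -0.68. The numbered zinc finger proteins, most of them KRAB repressors, had 0 higher and 2 lower of 368 tested, at a median log2 change of -0.06. By sign 222 of the 368 were lower, beside 11038 of the 20001 genes tested. The members past 1 were Zfp354c, from 6.39 to 1.94 FPKM, and Zfp395, from 19.4 to 7.35 FPKM. Of 10 genes listed as E2F factors and their partners, regulators of cell cycle genes, 8 were lower by sign and 0 passed 1, with a median of -0.39. Gata3, the luminal lineage factor, went from 37.2 to 31.9 FPKM, a log2 change of -0.21.

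Of 417 receptor genes tested, 22 were higher, 5.28%, and 14 lower, 3.36%, beside 2.26% and 1.59% of all genes. In the 162 well measured, 15 were higher, 9.26%, and 10 lower, 6.17%, beside 4.12% and 2.33%. The list of G protein-coupled receptors, drawn up by gene symbol, held the extremes in both directions. Gpr137b, a lysosomal membrane protein of the GPR137 family (ENSMUSG00000021306, chromosome 13, 13357620 to 13394014), rose from 1.902 to 30.9 FPKM, a baicalin over DMSO ratio of 16.3 (14.02 to 18.96). A near-identical pseudogene takes part of its reads, and summed over both the ratio was 8.67 (7.86 to 9.59). Gprc5a, an orphan receptor induced by retinoic acid, rose from 7.02 to 24.6 FPKM, and Adgrf4, an adhesion receptor, from 4.27 to 16.2 FPKM. Cxcr4, the receptor of the chemokine CXCL12 (ENSMUSG00000045382, chromosome 1, 128588199 to 128592293), fell from 12.3 to 0.8304 FPKM, a baicalin over DMSO ratio of 0.0674 (0.0452 to 0.0971). Lgr5, the R-spondin receptor known as an epithelial stem cell marker (ENSMUSG00000020140, chromosome 10, 115450311 to 115587780), fell from 17.7 to 1.93 FPKM, a baicalin over DMSO ratio of 0.109 (0.0985 to 0.121). Oxtr, the oxytocin receptor of myoepithelial cells, fell from 19.4 to 3.61 FPKM, a baicalin over DMSO ratio of 0.186 (0.166 to 0.209), and Ackr3, a scavenging receptor that also binds CXCL12, from 6.57 to 2.44 FPKM.

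Receptor tyrosine kinases had 1 higher, 2.7%, and 3 lower, 8.11%, of 37 tested, beside 2.26% and 1.59% of all genes. All 3 lower ones reached the limit of 5 FPKM in the DMSO library only. Kit, the stem cell factor receptor, fell from 6.59 to 0.957 FPKM, a baicalin over DMSO ratio of 0.145 (0.123 to 0.1704). Ror1, a WNT5A receptor, fell from 11.6 to 2.45 FPKM, a baicalin over DMSO ratio of 0.211 (0.185 to 0.2398), and Pdgfra, better known from fibroblasts, from 6.298 to 1.67 FPKM, a baicalin over DMSO ratio of 0.265 (0.235 to 0.299). Pdgfra is also 1 of the 8 fibroblast markers, of which the other 7 were higher by sign and none of those passed 1. In the TNF receptor superfamily 4 of 26 were higher, 15.4%, and 0 lower. Tnfrsf23 and Tnfrsf22, decoy receptors for TRAIL, rose from 5.14 to 21.5 FPKM and from 4.84 to 13.9 FPKM, and Eda2r, a p53-inducible receptor of ectodysplasin, from 1.81 to 6.92 FPKM. Tnfrsf22 shares long stretches with other genes. Cytokine receptors had 4 higher, 8.16%, and 3 lower, 6.12%, of 49. Il18r1 and Il4ra, receptor chains for IL-18 and IL-4, rose from 1.28 to 5.77 FPKM and from 18.6 to 39.6 FPKM, and the family list also counts Il1rn, the IL-1 receptor antagonist. Lifr, the LIF receptor, fell from 31.1 to 10.95 FPKM, a baicalin over DMSO ratio of 0.352 (0.336 to 0.369), and Il17rb, an IL-17 receptor chain, from 5.73 to 1.33 FPKM. Other rises past 1 were those of Nrp2, a coreceptor for semaphorins and VEGF (3.66 to 18.6 FPKM), Tlr2, a receptor of bacterial lipoproteins (16.4 to 40.2 FPKM), and Itga2, the integrin alpha chain for collagen (6.81 to 16.6 FPKM).

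Secreted proteins had larger called shares than transporters, transcription factors and receptors, in both directions. Of 533 tested, 65 were higher, 12.2%, and 35 lower, 6.57%, beside 2.26% and 1.59% of all genes. The median log2 change was 0.06. In the 204 well measured, 52 were higher, 25.5%, and 24 lower, 11.8%, around a median of 0.30. These shares describe the libraries and stand beside 4.12% and 2.33% for all well-measured genes.

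Cytokines had more rises than falls. Of 49 interleukins and colony-stimulating and related factors tested, 8 were higher, 16.3%, and 3 lower, 6.12%, beside 2.26% and 1.59% of all genes. Il1a, an IL-1 receptor agonist (ENSMUSG00000027399, chromosome 2, 129299610 to 129309972), rose from 1.81 to 18.4 FPKM, a baicalin over DMSO ratio of 10.2 (7.97 to 13.3). Il1f9, the gene of IL-36 gamma, rose from 0.314 to 9.08 FPKM, a baicalin over DMSO ratio of 28.96 (15.5 to 61.01), and Tslp, an epithelial alarmin, from 3.33 to 20.5 FPKM. Tnf rose from 6.46 to 28.2 FPKM, Lif from 4.54 to 14.5 FPKM and Csf3, the granulocyte growth factor, from 2.56 to 9.56 FPKM. The 3 that fell were Il33, another alarmin of the IL-1 family (ENSMUSG00000024810, chromosome 19, 29925114 to 29960718), from 35.2 to 3.36 FPKM, a baicalin over DMSO ratio of 0.0953 (0.08199 to 0.1103), Tnfsf10, the TRAIL gene, from 8.104 to 0.4598 FPKM, and Il17b, a ligand of the fallen receptor gene Il17rb, from 7.76 to 1.12 FPKM. The IL-1 family genes Il1a and Il33 thus moved in opposite directions, with log2 changes of 2.79 and -3.06. Among 23 chemokines 7 were higher, 30.4%, and 2 lower, 8.7%. Cxcl1, Cxcl2 and Cxcl5, which attract neutrophils, rose from 33.8 to 72.1 FPKM, from 3.52 to 11.9 FPKM and from 16.4 to 47.8 FPKM. Cxcl16, a membrane-bound chemokine, rose from 21.4 to 66.3 FPKM and Ccl20 from 0.473 to 5.52 FPKM, while Cxcl14 fell from 22.96 to 6.84 FPKM, a baicalin over DMSO ratio of 0.298 (0.258 to 0.343).

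Calls among growth factor families went both ways. TGF-beta, BMP and GDF ligands had 4 higher and 1 lower of 34 tested, Wnt ligands and modulators 2 and 1 of 21, VEGF, PDGF and angiopoietin ligands 1 and 2 of 19, FGF ligands 1 and 0 of 13, and IGF ligands and binding proteins 1 and 1 of 8. Over all genes 2.26% were higher and 1.59% lower, and in families this small 1 call weighs much, 12.5% of the 8 IGF genes. Of 10 EGF-type ligands tested 8 were higher by sign, 3 of them past 1, with a median log2 change of 0.62. Epgn, Ereg and Hbegf, ligands of the EGF receptor family, rose from 6.83 to 25.8 FPKM, from 4.09 to 13.7 FPKM and from 3.701 to 9.31 FPKM. Vegfa, the angiogenic factor, rose from 17.7 to 75.1 FPKM, a baicalin over DMSO ratio of 4.24 (4.01 to 4.49), while Pdgfc fell from 29.1 to 11.3 FPKM. Fgf21 and Gdf15, hormones released by stressed cells, rose from 0.109 to 5.602 FPKM and from 1.51 to 9.15 FPKM. Fgf21 rested on 2 and 110 fragments, a ratio interval of 13.9 to 431. Inhba, the activin A subunit, rose from 7.29 to 24.2 FPKM and Wnt5a from 8.37 to 19.4 FPKM, a baicalin over DMSO ratio of 2.32 (2.17 to 2.48). Sfrp1, a secreted Wnt antagonist (ENSMUSG00000031548, chromosome 8, 23411502 to 23449632), fell from 78.1 to 12.2 FPKM, a baicalin over DMSO ratio of 0.156 (0.146 to 0.166). Igfbp5, an IGF-binding protein (ENSMUSG00000026185, chromosome 1, 72857932 to 72874884), fell from 749 to 111 FPKM, a baicalin over DMSO ratio of 0.148 (0.145 to 0.151). Igfbp2 went from 22.5 to 11.1 FPKM, a log2 change of -0.96, and Igfbp6 rose from 4.23 to 11.2 FPKM.

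Proteases and their inhibitors had many more rises than falls. Kallikreins and other secreted serine proteases had 8 higher, 19.5%, and 0 lower of 41 tested, beside 2.26% and 1.59% of all genes. Klk7 and Klk6, proteases of epidermal shedding, rose from 4.55 to 35.5 FPKM, a baicalin over DMSO ratio of 7.79 (6.63 to 9.203), and from 3.65 to 28.2 FPKM, a baicalin over DMSO ratio of 7.73 (6.32 to 9.53). Klk8, Klk14 and Klk10 followed, from 7.01 to 24.3 FPKM, from 1.38 to 6.82 FPKM and from 3.73 to 9.88 FPKM. Among 51 serpins and other protease inhibitors 8 were higher, 15.7%, and 1 lower, 1.96%. Spink5, whose product inhibits kallikreins, rose from 10.5 to 45.1 FPKM, a baicalin over DMSO ratio of 4.28 (3.99 to 4.59), and Cst6 and Stfa3, inhibitors of cysteine proteases, from 3.99 to 18.02 FPKM and from 1.003 to 14.6 FPKM. Cst3, the cystatin C gene, fell from 124 to 53.3 FPKM. Of 56 metalloproteinases 8 were higher, 14.3%, and 1 lower, 1.79%. Mmp3 and Mmp10, the stromelysins, rose from 9.49 to 43.5 FPKM and from 0.9601 to 5.91 FPKM, Adam8 and Adam12, membrane proteases that shed surface proteins, from 3.97 to 22.8 FPKM and from 4.32 to 21.2 FPKM, and the inhibitor Timp3 from 134 to 288 FPKM.

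Matrix genes moved both ways, with collagens mostly lower among the calls. Of 39 collagen genes tested 1 was higher, 2.56%, and 7 lower, 17.9%, beside 2.26% and 1.59% of all genes. By sign 17 of the 39 were higher and 22 lower, at a median log2 change of -0.01. In the 14 well measured 6 were lower past 1, at a median of -0.56. That median depends on the limit, which Col9a2, Col11a1 and Col16a1 passed with DMSO only. Col14a1, a collagen that binds along fibrils (ENSMUSG00000022371, chromosome 15, 55307750 to 55520803), fell from 108 to 12.7 FPKM, a baicalin over DMSO ratio of 0.118 (0.112 to 0.124). Col9a2 and Col9a3, chains of collagen IX, fell from 18.4 to 1.63 FPKM and from 115 to 43.1 FPKM, Col11a1 from 14.1 to 1.17 FPKM and Col16a1 from 19.8 to 3.91 FPKM. Col18a1, a collagen of basement membranes, was the higher one, from 55.2 to 139 FPKM. Laminins and other basement membrane proteins had 2 higher, 5.41%, and 5 lower, 13.5%, of 37 tested. Emid1 and Frem2 (ENSMUSG00000037016, chromosome 3, 53513938 to 53657355), the latter an anchor of epithelium to mesenchyme, fell from 44.3 to 3.52 FPKM and from 10.8 to 0.296 FPKM, FPKM ratios of 0.0794 and 0.0274. Nid1, which links laminin to collagen IV (ENSMUSG00000005397, chromosome 13, 13437551 to 13512269), rose from 9.44 to 59.96 FPKM, a baicalin over DMSO ratio of 6.35 (5.99 to 6.75), and Lama3, a laminin-332 chain, from 29.97 to 76.8 FPKM. Thbs1, Tnc and Lox, a thrombospondin, tenascin C and the collagen crosslinking enzyme, rose from 284 to 712 FPKM, from 52 to 133 FPKM and from 1.24 to 11.1 FPKM. Mgp, matrix Gla protein, fell from 178 to 23.9 FPKM, a baicalin over DMSO ratio of 0.135 (0.123 to 0.147), and Bgn and Matn4, a proteoglycan and a matrilin, from 87.7 to 27.8 FPKM and from 54.05 to 12.4 FPKM.

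**Figure D3:**
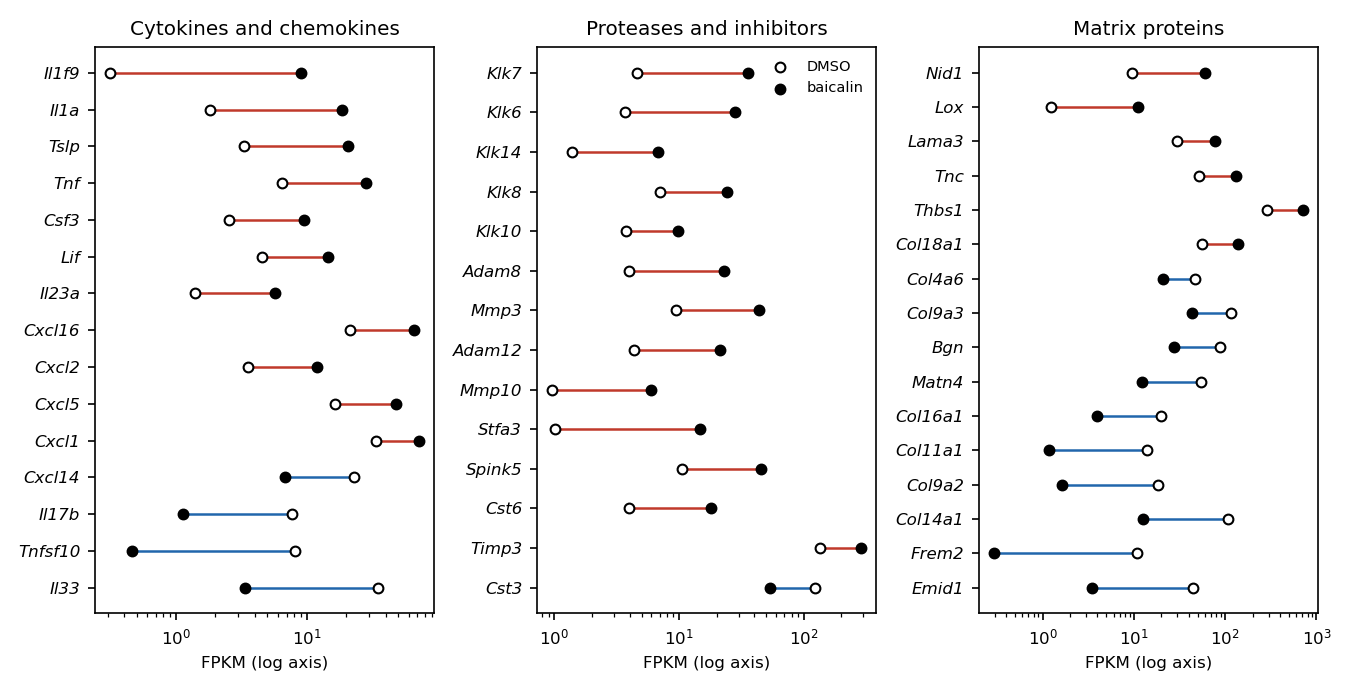
FPKM with DMSO (open circles) and with baicalin (filled circles) of chosen members past 1 on the log2 scale in 3 groups of secreted proteins, on log axes, 1 library each, red lines for rises and blue for falls. The protease panel holds 13 rises and 1 fall, that of Cst3, while the matrix panel holds 6 rises and 10 falls.

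Acute-phase and antimicrobial genes had 5 higher, 20%, and 1 lower, 4%, of 25 tested, beside 2.26% and 1.59% of all genes. By sign 13 of the 25 were higher and 12 lower, at a median log2 change of 0.08. The 11 well measured had a median of -0.21. Saa3, a serum amyloid of local inflammation (ENSMUSG00000040026, chromosome 7, 46711998 to 46715700), rose from 0.238 to 14.01 FPKM, a baicalin over DMSO ratio of 58.9 (33.5 to 115), on 12 and 754 fragments. S100a8, a calgranulin, rose from 0.521 to 5.02 FPKM and Chil1, a chitinase-like protein, from 49.2 to 125 FPKM, while Hp, haptoglobin, fell from 19.8 to 8.11 FPKM. Complement genes had 4 higher, 21.1%, and 0 lower of 19. C3, the central component, rose from 8.23 to 36.9 FPKM, a baicalin over DMSO ratio of 4.49 (4.16 to 4.84), and Serping1, the C1 inhibitor, from 1.84 to 6.37 FPKM. Milk and luminal secretory genes had 1 higher, 4.35%, and 4 lower, 17.4%, of 23 tested. Xdh, a xanthine oxidoreductase of the milk fat globule, rose from 9.23 to 28.5 FPKM, while Btn1a1, a butyrophilin of the same globule, fell from 9.93 to 3.93 FPKM. Among caseins, Csn3 and Csn1s1 had 4.54 and 3.56 FPKM with DMSO and 0.0933 and 0.101 with baicalin.

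Genes linked to NRF2, ATF4 and p53 were nearly all higher by sign. All 26 NRF2-linked antioxidant genes were higher by sign, 11 of them past 1, 42.3%, with a median log2 change of 0.94. Over all genes 2.26% were higher and 1.59% lower past 1, and 8961 of 20001 were higher by sign. Srxn1, Hmox1 and Nqo1, which repair peroxiredoxins, break down heme and reduce quinones, rose from 9.18 to 50.4 FPKM, from 46.9 to 159.9 FPKM and from 143 to 469.6 FPKM. Of 30 ATF4-linked amino acid and stress genes 29 were higher by sign and 14 past 1, 46.7%, at a median of 0.99. Trib3, a pseudokinase of the stress response, rose from 4.98 to 32.2 FPKM, Chac1 from 0.726 to 8.25 FPKM and Asns, the asparagine synthetase, from 20.4 to 52.7 FPKM. Slc7a11 stands in both lists. The p53-linked list had 24 of 28 genes higher by sign and 10 past 1, 35.7%. Of tRNA synthetases 16 of 20 were higher by sign and 2 past 1, 10%. Glutathione S-transferases split within the family, with 13 of 24 higher by sign, 5 of them past 1, 20.8%, and 1 lower past 1, 4.17%. The higher ones past 1 were the 4 alpha-class genes Gsta1 to Gsta4 and Gsto1, from 88.02 to 208 FPKM. Cyp1b1, a P450 induced through the aryl hydrocarbon receptor (ENSMUSG00000024087, chromosome 17, 79701537 to 79715061), rose from 68.4 to 253 FPKM, a baicalin over DMSO ratio of 3.696 (3.604 to 3.79), and Cyp26a1, which degrades retinoic acid, fell from 5.22 to 0.847 FPKM. Aldh1a3, a retinaldehyde dehydrogenase that makes retinoic acid, rose from 46.4 to 163 FPKM, a baicalin over DMSO ratio of 3.505 (3.39 to 3.63). Ces2f and Ces2g, carboxylesterases, rose from 0.976 to 8.44 FPKM and from 2.24 to 12.8 FPKM. Metallothioneins, which bind metal, did not follow, and Mt1 and Mt2 had log2 changes of -0.42 and -0.42. The direction of the NRF2, ATF4 and p53 lists was known from earlier results of these libraries and is given here as a description.

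Genes of DNA replication and mitosis were all lower by sign. The 40 replication genes and 30 mitotic genes had median log2 changes of -0.66 and -0.78, with 5 and 6 past 1, 12.5% and 20%. Over all genes 1.59% were lower past 1, and 11038 of 20001 were lower by sign. Mki67, the proliferation marker, fell from 68.6 to 25.9 FPKM, a baicalin over DMSO ratio of 0.377 (0.366 to 0.3895), and Ccna2, cyclin A2, from 29.8 to 12.5 FPKM. Subunits of the respiratory chain encoded in the nucleus shifted little and mostly downward. By sign 73 of 81 were lower and 8 higher, with 0 past 1 and a median of -0.25. Cytosolic ribosomal proteins had a median of -0.03. Heat shock proteins and chaperones, 38 higher and 43 lower by sign of 81, had a median of -0.01 and none past 1. Cathepsins and lysosomal hydrolases had 35 of 42 higher by sign and 1 past 1, 2.38%, beside 2.26% of all genes. The gene past 1 was Ctsl, from 75.7 to 156 FPKM.

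**Figure D4:**
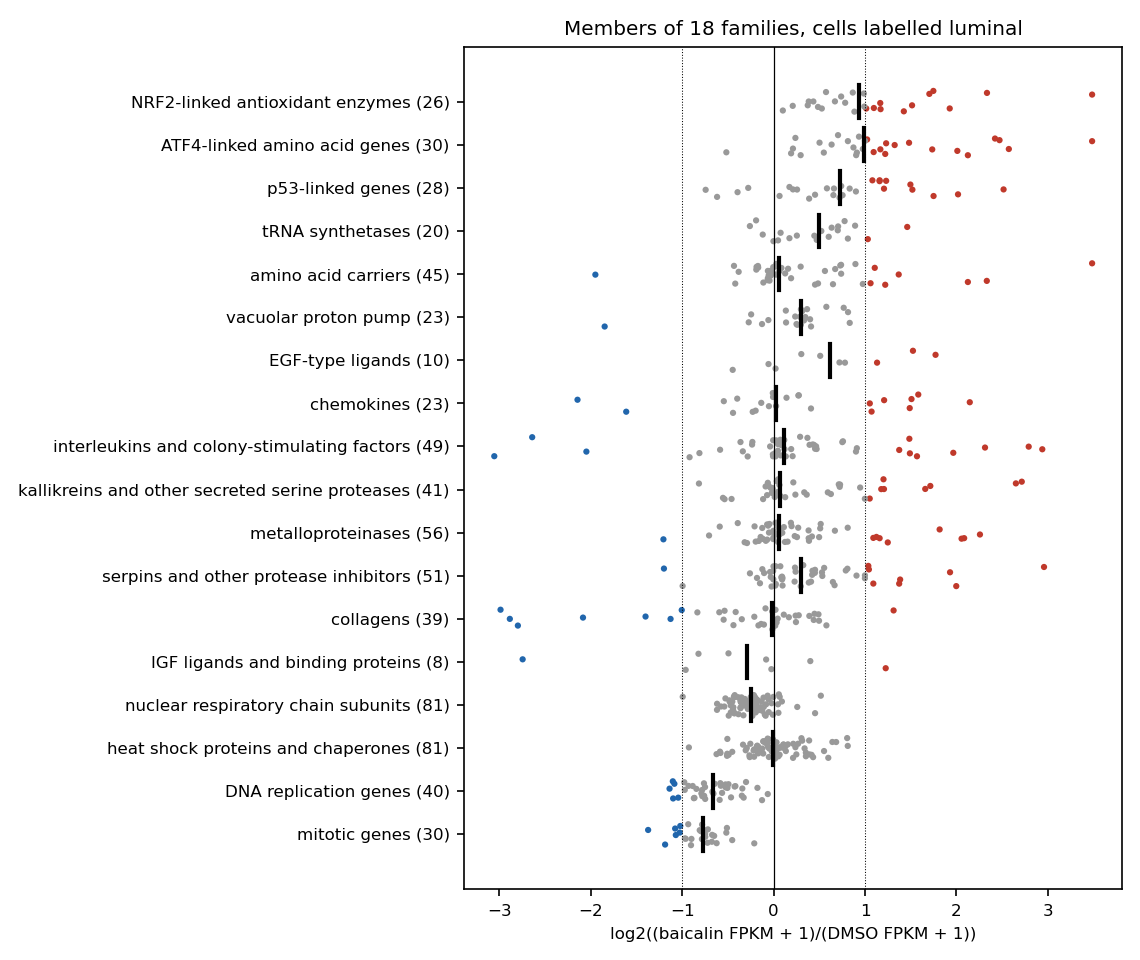
Horizontal axis, log2 change (baicalin against DMSO, 1 FPKM added) of the tested members of 18 families in cells labelled luminal, the number of members in brackets. Points are genes, red above 1 and blue below -1, black bars are medians, and dotted lines mark -1 and 1. The NRF2-linked list lies wholly to the right of 0 and the replication and mitotic lists wholly to the left, while chemokines and interleukins pass 1 in both directions.

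Keratins moved both ways. Of 28 tested, 4 were higher, 14.3%, and 3 lower, 10.7%, beside 2.26% and 1.59% of all genes. Krt16 and Krt17, keratins of stressed and migrating epidermis, rose from 37.9 to 199.6 FPKM, a baicalin over DMSO ratio of 5.27 (4.95 to 5.61), and from 358 to 1140.0 FPKM, a baicalin over DMSO ratio of 3.19 (3.12 to 3.26). Krt15, a keratin of basal epidermal cells (ENSMUSG00000054146, chromosome 11, 100131758 to 100135928), fell from 42.6 to 4.002 FPKM, a baicalin over DMSO ratio of 0.0939 (0.0787 to 0.111), and Krt19, a simple-epithelium keratin, from 105 to 24.98 FPKM, a baicalin over DMSO ratio of 0.238 (0.221 to 0.255). Krt5 and Krt14, the basal pair, went from 2015 to 2415 FPKM and from 2308 to 3132 FPKM, while the contractile genes Cnn1 and Tagln fell from 11.7 to 3.43 FPKM and from 97.6 to 47.2 FPKM. Acta2 and Mylk were also lower by sign, from 555 to 417 FPKM and from 5.76 to 3.29 FPKM, but the myosin gene Myh11 went from 9.5 to 11.6 FPKM. Of 52 actin, myosin and smooth muscle genes tested 24 were higher and 28 lower by sign, at a median log2 change of -0.01. Tagln shares 67.9% of its exon bases with genes on the other strand. Among junction genes Cldn4 and Cldn1, tight junction claudins, rose from 45.9 to 136 FPKM and from 9.63 to 32.1 FPKM, and Dsg3, a desmosomal cadherin, rose from 70.8 to 173 FPKM. Dsg1a and Dsg1b are near-identical, and their summed ratio was 4.41 (3.97 to 4.92).

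Few long noncoding genes reached 5 FPKM. Of 2884 tested 11 were higher, 0.381%, and 17 lower, 0.589%, below the 2.26% and 1.59% of all genes. Of the 95 that were well measured 5 were higher, 5.26%, and 8 lower, 8.42%, beside 4.12% and 2.33% of all well-measured genes, and the ratio interval excluded 1 for all 13. Snhg12, a host gene of small nucleolar RNAs (ENSMUSG00000086290, chromosome 4, 132308623 to 132311024), rose from 12.5 to 30.9 FPKM, a baicalin over DMSO ratio of 2.48 (2.25 to 2.73). Of 17 such host genes tested 12 were higher by sign, and 2 past 1. 2610035D17Rik, a lincRNA (ENSMUSG00000087259, chromosome 11, 113043895 to 113201838), rose from 4.04 to 12.4 FPKM, a baicalin over DMSO ratio of 3.06 (2.57 to 3.66), and Gm20186 from 3.001 to 10.7 FPKM, of whose exon bases 81.4% overlap other genes on the opposite strand. Crnde, a long noncoding RNA raised in colorectal tumours, fell from 14.8 to 6.65 FPKM, a baicalin over DMSO ratio of 0.448 (0.387 to 0.518), and the antisense RNA Gm11266 from 5.24 to 0.8002 FPKM, a baicalin over DMSO ratio of 0.153 (0.0914 to 0.243). The lincRNA Gm37068 fell from 5.57 to 0.681 FPKM. Malat1, an abundant nuclear RNA, went from 199 to 222 FPKM, a log2 change of 0.15, and the X-linked Firre from 21.7 to 21.3 FPKM, -0.03.

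Small noncoding genes gave wide intervals. Of 352 tested 20 were higher, 5.68%, and 34 lower, 9.66%, beside 2.26% and 1.59% of all genes. By FPKM 88 were well measured, but the median of their larger fragment count was 18, since a short gene reaches 5 FPKM on few fragments. Of these 88, 9 were higher, 10.2%, and 14 lower, 15.9%, beside 4.12% and 2.33% of all well-measured genes. The interval excluded 1 for 17 of these 23 called genes. Mir7052 went from 0.795 to 6.71 FPKM on 1 and 9 fragments, an interval of 1.17 to 369.8, and Mir23b from 2.09 to 7.199 FPKM, an interval of 0.908 to 19.2 that holds 1. The libraries were made from polyadenylated RNA, so such values concern precursor or host transcripts, and mature microRNAs were not measured.

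The basal-labelled pair gave the same call for part of the genes. Over the 8450 genes well measured here, 2.85% were higher and 4.57% lower by more than 1 in that pair. Of the 348 genes higher here, 97 were higher there as well and 35 were lower, and of the 197 lower here, 75 were lower there as well and 3 were higher. The pairs share no library. Slc7a11 went from 2.73 to 76.4 FPKM there, Gsta4 from 15.95 to 149 FPKM and Gpr137b from 11.1 to 79.6 FPKM, so these rises were seen in both. Cxcr4, Il33, Lgr5 and Col14a1, which fell with the luminal label, had under 1 FPKM in the basal-labelled DMSO library. Krt16 went from 19.5 to 1.83 FPKM, Klk6 from 7.12 to 0.619 FPKM, Mmp3 from 32.2 to 6.02 FPKM and Il1a from 39.3 to 13.5 FPKM, each lower with baicalin there and higher here. The difference between the pairs was not tested, since each condition has 1 library.

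**Figure D5:**
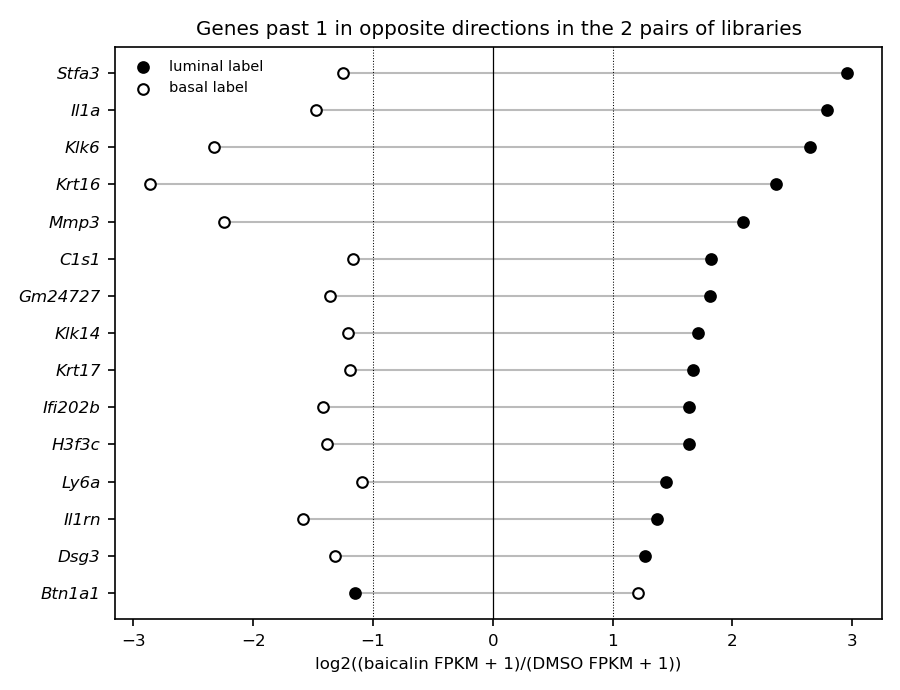
log2 change (baicalin against DMSO, 1 FPKM added) of the 15 named genes that passed 1 in opposite directions in the pair labelled luminal (filled) and the pair labelled basal (open), 1 library per condition. All but Btn1a1 were higher with the luminal label and lower with the basal label.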

How the data were processed

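RNA was extracted from 3D cultures, enriched with oligo (dT) beads, made into stranded libraries and sequenced. Per the paper's methods the authors aligned reads with HISAT2 to GRCm38, counted them with featureCounts on Ensembl annotation and deposited FPKM, 4 decimals per gene and library. The submitters' processing notes name Bowtie 0.12.2, mm8 and GRCm38 without roles. Each of the 4 libraries is the only one of its group.

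Gene positions, types and exon lengths came from GENCODE M21 on GRCm38, and 54409 genes had a length. FPKM times length fell within 0.05 of whole fragments for 99.0% of genes with few fragments with DMSO and 98.9% with baicalin, which gave depth and fragments. No count test was run, since each condition has 1 library.

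The 103 families were symbol lists and patterns written from general knowledge. Named genes were the 15 largest rises and falls among well-measured genes, the 6 each way per class, the 3 largest changes per family, and cell markers, not all printed. Some genes outside this rule are given as family members past 1. The members, lists and rule were chosen with earlier results of these data known. Near-identical genes share at least 95% identity over 200 bases or 50% of a transcript (minimap2 2.31-r1302). Such stretches make the values of Il1a, Klk14, Mmp3, Slc20a1, Slc7a2 and Wnt5a uncertain, beside those named in the text. Alternatives were the pseudocount, filters, TPM, centring and threshold. The computation was tested on simulated data. The work was done in Python (3.11.15) with pandas (2.3.3), numpy (2.4.6), matplotlib (3.10.9) and scipy (1.17.1).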

Additional observations from a re-analysis of the deposited data

Results flagged for a closer look

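Among the named genes, 15 passed 1 on the log2 scale in opposite directions in the pairs of libraries labelled luminal and basal. The difference was not tested, because each condition has 1 library. The log2 changes that follow are for the luminal label first and the basal label second. Protease and inhibitor genes were Klk6 (2.65 and -2.33), Klk14 (1.72 and -1.21), Mmp3 (2.09 and -2.24) and Stfa3 (2.96 and -1.25). Keratin and desmosome genes were Krt16 (2.37 and -2.86), Krt17 (1.67 and -1.19) and Dsg3 (1.28 and -1.32). Inflammatory and surface genes were Il1a (2.79 and -1.47), Il1rn (1.37 and -1.58), C1s1 (1.82 and -1.16), Ifi202b (1.64 and -1.41) and Ly6a, the Sca-1 gene (1.45 and -1.09). H3f3c, annotated as a processed pseudogene of a histone gene (1.63 and -1.39), and the small nucleolar RNA Gm24727 (1.82 and -1.36) are near-identical to other genes, as are parts of C1s1, Ly6a, Klk14, Mmp3 and Il1a, so the values of these genes are uncertain. Btn1a1 was the only one lower with the luminal label (-1.15 and 1.22).

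Genes at 0 in 1 of the luminal-labelled libraries were outside the 20001 genes compared. With DMSO at 0 and at least 10 fragments with baicalin there were 22 genes, and with baicalin at 0 and at least 10 with DMSO there were 28. Those with at least 20 fragments are given with the fold against a floor of 3 fragments in the library at 0, which covers counting error only. On the baicalin side, Sh2d6, an adaptor protein gene, had 45 fragments (at least 14.1-fold higher with baicalin). Dnase1l3, a secreted nuclease, had 38 fragments (at least 11.9-fold higher with baicalin), and the muscle cytochrome oxidase subunit Cox6a2 had 25 fragments (at least 7.81-fold higher with baicalin). B4galnt2, a glycosyltransferase, had 23 fragments (at least 7.19-fold higher with baicalin), and Acot5, a thioesterase, had 21 fragments (at least 6.56-fold higher with baicalin). The lincRNAs Gm38403 and A330074K22Rik had 31 fragments (at least 9.69-fold higher with baicalin), and 20 fragments (at least 6.25-fold higher with baicalin). On the DMSO side, Sez6, a membrane protein known from neurons, had 72 fragments (at least 25.6-fold lower with baicalin). Vsig8 had 31 fragments (at least 11.02-fold lower with baicalin), and Sftpc, the surfactant protein C gene, had 29 fragments (at least 10.3-fold lower with baicalin). Vwc2, a secreted BMP modulator, had 26 fragments (at least 9.25-fold lower with baicalin), and Dcpp1 had 22 fragments (at least 7.82-fold lower with baicalin). Frmpd1os, Gm30191 and 5430419D17Rik had 25 fragments (at least 8.89-fold lower with baicalin), 24 fragments (at least 8.53-fold lower with baicalin), and 23 fragments (at least 8.18-fold lower with baicalin).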

How the results depend on the processing

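The counts of calls depended on the pseudocount, the scale and the threshold. Against 452 higher and 318 lower genes, a pseudocount of 0.1 FPKM gave 1234 and 1115, no pseudocount 1976 and 2175, scaling to TPM 803 and 665, and a threshold of 2 gave 66 and 53. Keeping only well-measured genes, the lower count was 197. The other alternatives kept both counts within 1.5 times the main ones. No named gene that was called changed sign in 365 genes under 4 alternatives. Of 103 family medians, 21 changed sign on centring, where each moved by less than 0.1, 1 did on scaling to TPM and 1 with no pseudocount. Medians moved by more than 0.1 in 33 families with no pseudocount, 29 with 0.1 FPKM and 10 with TPM. With well-measured members only, 47 moved by more than 0.1 and 19 changed sign, and with at least 10 fragments 19 and 8 did. With 1 library per condition no replicate could be left out. No paired analysis was possible because the result comes from no test. Depth limits small RNA genes most, and over all calls 729 of 770 ratio intervals excluded 1.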

Other observations

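Genes of the cornified envelope, the protein shell of the outer epidermis, were not in the families. Sprr1b and Pglyrp3 were among the 15 largest rises, and the others here were picked after their values were seen. Sprr1b and Sprr1a, envelope precursors, rose from 2.61 to 23.2 FPKM and from 15.8 to 63.99 FPKM, with ratio intervals of 6.45 to 12.5 and 3.52 to 4.66. Cdsn, which encodes corneodesmosin, rose from 5.498 to 34.4 FPKM, Casp14, the caspase of cornification, from 2.59 to 10.9 FPKM, and Krtdap and Sbsn, secreted epidermal proteins, from 10.3 to 30.1 FPKM and from 16.2 to 43.8 FPKM. The antimicrobial genes Pglyrp3, Defb14 and Defb6 rose from 7.93 to 70.4 FPKM, from 1.77 to 14.7 FPKM and from 0.4798 to 6.897 FPKM. Sprr1b was at 0 in both basal-labelled libraries.

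Neurotrophic ligands and their receptor also moved, and were likewise chosen after their values were seen. Gdnf and Artn, ligands of the GFRA receptors that signal through RET, rose from 1.63 to 12.4 FPKM and from 7.17 to 36.3 FPKM. Gfra1, the receptor of GDNF, fell from 16.5 to 1.89 FPKM, a baicalin over DMSO ratio of 0.115 (0.0993 to 0.133), while Gfra2 rose from 1.24 to 5.16 FPKM. Of 3 apolipoprotein genes, of which Apod was among the 15 largest falls and the others were picked after their values were seen, Apoe fell from 399 to 75.8 FPKM, Apod from 11.2 to 0.639 FPKM and Apoc1 from 29.7 to 8.72 FPKM. The proliferin genes Prl2c2, Prl2c3 and Prl2c5, placental hormone relatives, rose from 1.14 to 7.78 FPKM, from 2.32 to 18.8 FPKM and from 0.702 to 8.6 FPKM. They belong to a family of close paralogs, so the split of fragments between them is uncertain.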
